A study of Mus musculus with 9 samples.

Results

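The semaphorins, plexins and neuropilins are a family of guidance ligands and their receptors. Its rows were taken by gene symbol from the count and FPKM tables, which gave 31 of 24393 counted genes, namely 20 semaphorins, 9 plexins and 2 neuropilins. The members were selected on their symbols and no measured value enters that rule, but the family was chosen by its values in earlier results of the same KO against WT contrast, in which Sema6a stood among the largest rises. The change of Sema6a is therefore given as a description with no p, and nothing is read from the number of members that passed a threshold.

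The libraries hold RNA of whole pancreatic islets taken from female mice. The 4 knockout (KO) libraries came from mice of genotype Rip-cre; Ogt f/f, in which Cre recombinase is expressed from an insulin promoter and removes floxed Ogt, the gene for O-GlcNAc transferase, in beta cells. The 5 wild-type (WT) libraries are from Cre-free mice, whose genotype was Ogt f/f in WT replicates 2, 4 and 5 and Ogt f/+ in WT replicates 1 and 3. Effects of Cre and of the deletion cannot be told apart, since no library has Cre without it, and whole islets also hold alpha, delta and other cells in which the insulin promoter is not active. Islets were cultured overnight before freezing. The ages of the mice, and whether each library is a separate animal, are not given in the labels, so the spread that p-values rest on may be technical.

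KO replicates 1 and 2 and WT replicates 1 to 3 were sequenced in run 1, and KO replicates 3 and 4 and WT replicates 4 and 5 in run 3, which the labels also call the 2nd run. Total counts lay between 3796043 and 6073537 per library, with all run 3 libraries deeper than all run 1 libraries. Ogt itself stood at 23.7 to 39.3 CPM (counts scaled to the library total adjusted by TMM, edgeR's normalisation factor) in KO and at 54.1 to 83.0 CPM in WT. The summed CPM of 10 beta cell markers was 42845 to 83074 in KO and 47900 to 110232 in WT, and no marker of any cell type list was at 0 in all libraries.

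Semaphorins are secreted or membrane-bound ligands that share a sema domain, and plexins are their main receptors, whose cytoplasmic part acts on small Ras and Rap GTPases and thereby on the cytoskeleton and on adhesion. Secreted class 3 semaphorins mostly need a neuropilin as co-receptor beside an A-type plexin or Plxnd1, whereas the transmembrane classes bind plexins directly, class 4 often the B-type and class 6 the A-type. Neuropilins also bind members of the VEGF family. In the mouse pancreas, semaphorin signals to neuropilins have been linked to how islets form, and members of the family are also used by islet blood vessels, nerves and stroma.

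Levels between genes were compared as FPKM, the authors' values scaled for transcript length and for sequencing depth. Plxnb2, a B-type plexin and a receptor of Sema4c, had the highest level, with 88.4, 106, 77.8 and 79.0 FPKM in KO replicates 1 to 4 and 89.4, 94.5, 90.5, 64.6 and 66.4 FPKM in WT replicates 1 to 5. In every library it lay far above every other member, and it held 71.3% to 78.3% of the summed plexin FPKM in KO and 73.7% to 80.8% in WT. Sema4b, a transmembrane class 4 semaphorin, came next with 16.99, 20.7, 14.5 and 15.8 FPKM in KO and 18.8, 17.9, 18.5, 13.1 and 10.6 FPKM in WT. Sema6d, a class 6 ligand of Plxna1, followed at 8.68, 15.6, 11.3 and 11.1 FPKM in KO and 7.39, 6.65, 12.7, 10.8 and 11.5 FPKM in WT. For these 3 genes the ranges of KO and WT overlapped.

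Nrp1, a neuropilin that binds class 3 semaphorins and VEGF-A, stood at 8.86, 14.7, 8.62 and 6.78 FPKM in KO and at 8.10, 8.33, 8.41, 7.29 and 8.86 FPKM in WT. Sema4d, the ligand of Plxnb1, was among the steadiest members, at 7.70, 9.03, 7.30 and 7.35 FPKM in KO and 7.23, 8.27, 7.41, 7.06 and 6.81 FPKM in WT. Plxna2 averaged 9.67 ± 0.626 FPKM in KO and 7.71 ± 0.815 FPKM in WT (SD, n = 4 and n = 5). Sema6d, Nrp1, Plxna2 and Sema4d thus followed each other in the order of mean levels with ranges that overlapped, so that their order among themselves lies within their spread.

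Sema6a ranked by mean FPKM at place 3 among the members in KO and at place 16 in WT. In KO its range of 9.62 to 15.9 FPKM overlapped that of Sema6d, 8.68 to 15.6 FPKM. The exact place in KO thus lies within the spread. At the low end, the 7 members Sema3a, Sema3b, Sema3d, Sema3g, Sema5b, Sema6c and Plxnb3 had at most 33 counts in any library and did not pass the filter on low counts. Sema3d, the lowest, had 0, 1, 14 and 9 counts in KO replicates 1 to 4 and 1, 0, 0, 11 and 8 counts in WT replicates 1 to 5. FPKM values of such genes are uncertain, since 4 of the 279 pairs of a member and a library were listed at 0 FPKM although they had 8 or 9 counts. They were Sema3d in KO replicate 4 and WT replicate 5, and Sema3g and Sema6c in WT replicate 4.

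**Figure D1:**
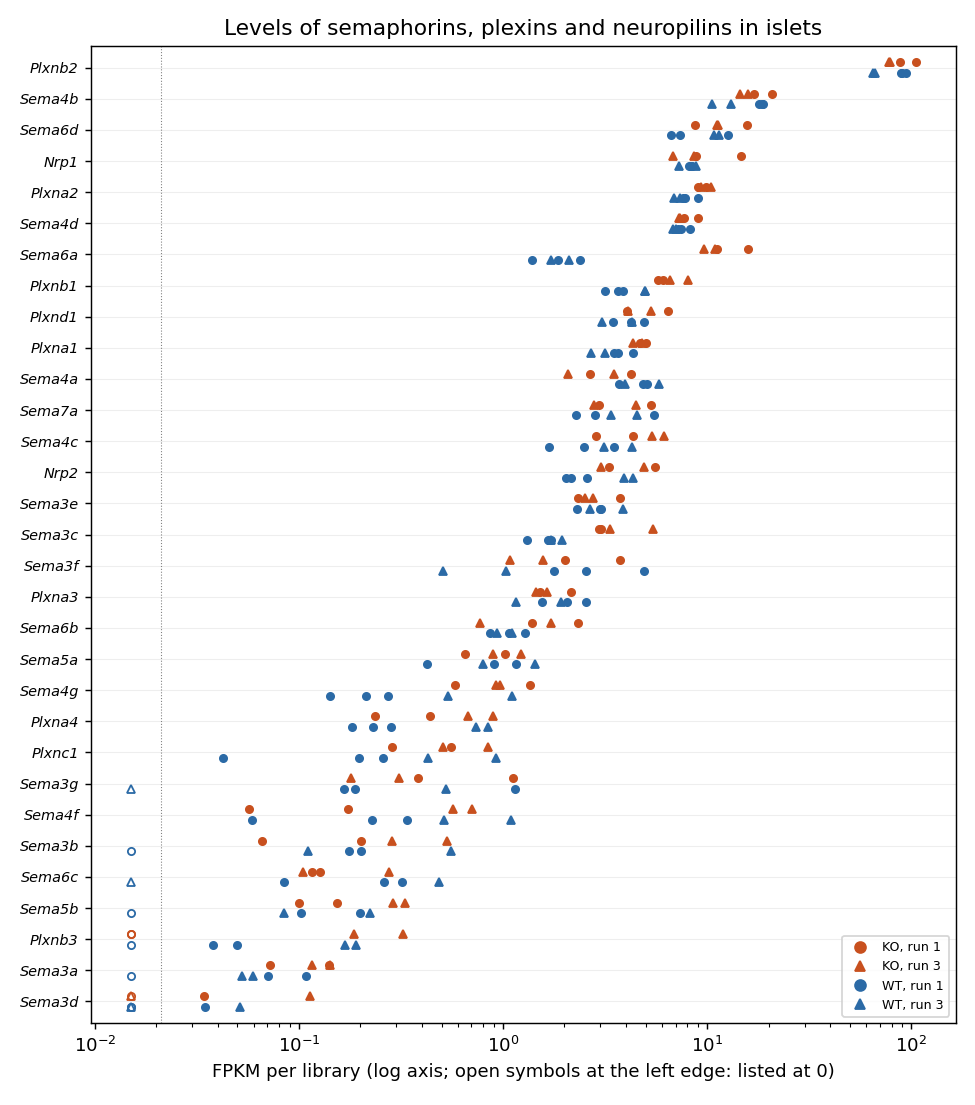
FPKM of the 31 members in each library on a log axis, ordered by the mean over all libraries, with KO in orange above WT in blue, circles for run 1 and triangles for run 3. Plxnb2 lies far above the rest, and Sema6a, at 9.62 to 15.9 FPKM in KO and 1.38 to 2.37 FPKM in WT, has the highest ratio of the means of KO and WT, 6.32.

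KO islets were set against WT islets with sequencing run as a term. Of the 24 members that passed the filter, 5 were called (edgeR, adjusted p under 0.05 by the method of Benjamini and Hochberg over all 12501 genes tested), all higher in KO, beside 18.5% of all tested genes called in either direction, 9.56% higher and 8.96% lower. They were 2 semaphorins, Sema6a and Sema3c, and 3 plexins, Plxnb1, Plxna1 and Plxna2. Sema6a is in these counts only as a description, since the family was chosen with its rise known. The edgeR test called 0 members lower, and so did DESeq2 and limma-voom, while 1 member, Sema4a, was lower at an unadjusted p under 0.05. All KO libraries lay above all WT libraries for 3 members, Sema6a among them, and below them for 0, beside 5.97% and 5.13% of tested genes. The median log2 fold change of the 24, Sema6a again included as a description, was 0.26, with 19 positive and 5 negative values. That of all tested genes was 0.02, with 52.0% positive. In bulk islets, fewer cells of a type and less RNA per cell cannot be told apart. The filter keeps a gene with enough counts in as many libraries as the smaller group holds, so that a gene high in KO alone can pass it, and with no filter 0 of the 7 remaining members were called.

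**Figure D2:**
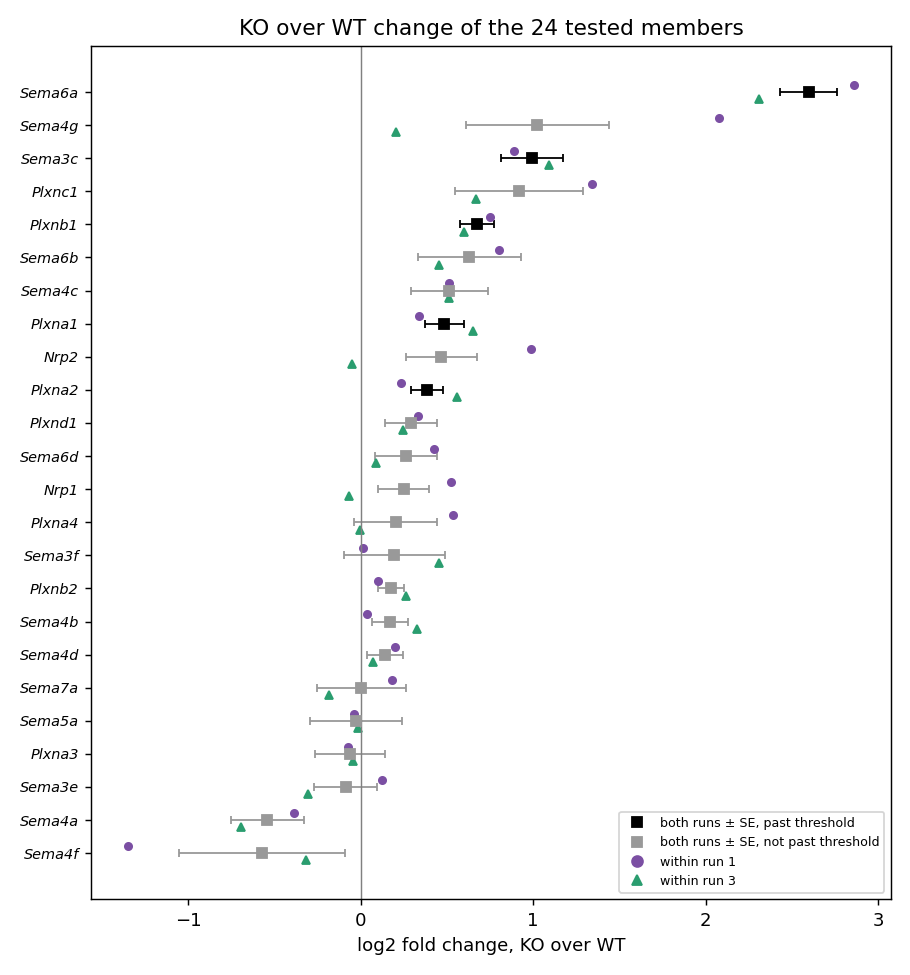
Log2 fold change of KO over WT for the 24 tested members, with the standard error as bars and the values within run 1 (circles) and within run 3 (triangles). Black squares mark the 5 members past the threshold, of which Sema6a lies farthest to the right at 2.60.

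Sema6a, a transmembrane class 6 semaphorin that binds Plxna2 and Plxna4, stood at 120, 85.7, 75.1 and 68.8 CPM in KO replicates 1 to 4, against 10.5, 14.2, 17.7, 17.3 and 11.5 CPM in WT replicates 1 to 5. Every KO library lay above every WT library, and the lowest KO value was far above the highest WT value. Its mean was 87.3 ± 22.7 CPM in KO (SD, n = 4) and 14.2 ± 3.27 CPM in WT (SD, n = 5). KO exceeded WT by 2.60 ± 0.17 (SE) on the log2 scale, or 6.05-fold. Within run 1 the log2 fold change was 2.86 ± 0.21 (SE) and within run 3 it was 2.31 ± 0.23 (SE), and leaving out single libraries gave 2.43 to 2.79. Its locus, on the minus strand of chromosome 18, runs from 47235598 to 47368870 (GRCm38, the build of mm10), and no other annotated gene overlaps it.

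Sema6a also made up a larger part of the semaphorin RNA in KO. Sema6a held 21.9%, 13.4%, 15.6% and 13.9% of the summed semaphorin FPKM in KO replicates 1 to 4, against 2.61%, 3.47%, 3.50%, 3.88% and 3.05% in WT replicates 1 to 5. The summed FPKM of all 20 semaphorins was 69.4 to 83.4 in KO and 52.9 to 67.9 in WT, ranges that did not overlap. Without Sema6a the sum was 56.6 to 72.2 in KO and 51.5 to 65.5 in WT, ranges that did.

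Sema3c, a secreted class 3 semaphorin that acts through neuropilins with Plxnd1 or A-type plexins, rose. It stood at 16.1, 16.1, 17.1 and 27.3 CPM in KO replicates 1 to 4, against 9.53, 9.07, 7.46, 10.1 and 10.8 CPM in WT replicates 1 to 5. All KO libraries lay above all WT libraries, and KO replicate 4 lay well above the other 3. The log2 fold change came to 0.99 ± 0.18 (SE, adjusted p = 0.00141) and, without KO replicate 4, to 0.82 (still called). It was 0.89 ± 0.26 (SE) within run 1 and 1.09 ± 0.26 (SE) within run 3. In a fit of the run 1 libraries alone, the call was lost (log2 fold change 0.88, adjusted p = 0.0582).

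Sema3c spans bases 17574281 to 17730268 of chromosome 5, plus strand, and the loci of Sema3d, Sema3a and Sema3e lie on the same strand of that chromosome, starting at 12383385, 13125414 and 14025276. Sema3e, which binds Plxnd1 without a neuropilin, had 28.0, 16.6, 20.4 and 16.1 CPM in KO and 21.98, 17.5, 21.4, 26.8 and 18.2 CPM in WT, with a log2 fold change of -0.09 ± 0.18 (SE, adjusted p = 0.788). The difference between the changes of Sema3c and Sema3e was not tested, and Sema3a and Sema3d, which repel growing axons in the nervous system, were too low to test.

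**Figure D3:**
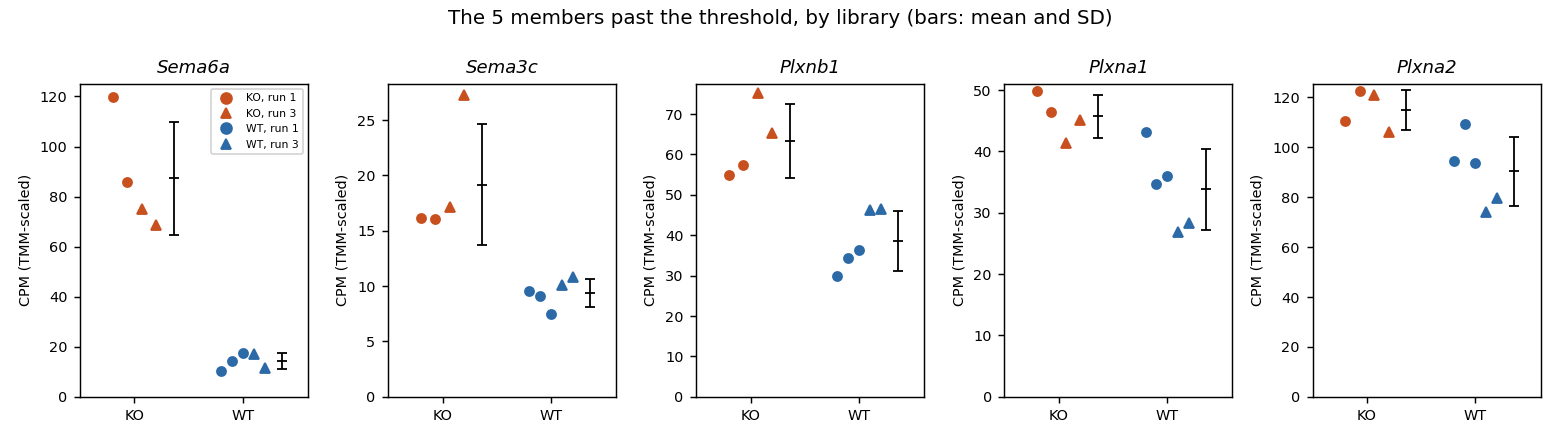
CPM per library for the 5 members past the threshold, KO on the left of each panel and WT on the right, with circles for run 1, triangles for run 3 and the mean with SD beside each group. KO and WT do not overlap for Sema6a, Sema3c and Plxnb1, and for Plxna1 and Plxna2 they overlap between runs but not within a run.

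Among the plexins, Plxnb1, Plxna1 and Plxna2 rose. Plxnb1, the receptor of Sema4d, stood at 54.9, 57.5, 75.3 and 65.3 CPM in KO replicates 1 to 4, against 29.8, 34.3, 36.3, 46.2 and 46.5 CPM in WT replicates 1 to 5. All KO libraries lay above all WT libraries. In both genotypes the run 3 values were above the run 1 values. The log2 fold change came to 0.67 ± 0.10 (SE, adjusted p = 0.000242), with 0.75 ± 0.14 (SE) within run 1 and 0.60 ± 0.14 (SE) within run 3. Its call held in all 24 alternatives computed, at log2 fold changes of 0.54 to 0.74.

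Plxna1, a receptor for class 3 semaphorins with neuropilins and for Sema6d, stood at 49.9, 46.5, 41.4 and 45.2 CPM in KO, against 43.2, 34.7, 36.1, 26.8 and 28.4 CPM in WT. WT replicate 1 lay above KO replicate 3, so the groups overlapped, but within each run all KO libraries were above all WT libraries. That held for 5 members, Sema6a among them, with 0 members the other way round, beside 11.9% and 11% of tested genes. The log2 fold change was 0.49 ± 0.11 (SE, adjusted p = 0.00654). Plxna2, a receptor of Sema6a, stood at 110, 123, 121 and 106 CPM in KO, against 94.5, 109, 93.7, 74.1 and 79.7 CPM in WT. WT replicate 2 lay above KO replicate 4, and again the groups did not overlap within a run. Its log2 fold change was 0.39 ± 0.09 (SE, adjusted p = 0.00895). The calls of Plxna1 and Plxna2 were lost without the run term (adjusted p = 0.111 and 0.123), within run 1 alone (0.213 and 0.290) and on FPKM values (0.0832 to 0.0923 and 0.0961 to 0.0996), and that of Plxna1 also without both WT replicates 2 and 5 (0.0563), with log2 fold changes of 0.33 to 0.47 for Plxna1 and 0.22 to 0.35 for Plxna2.

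The changes of Sema3c, Plxnb1, Plxna1 and Plxna2 were 1.31- to 1.99-fold, beside 6.05-fold for Sema6a.

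Promoter windows from RefSeq (GRCm38.p6, 250 bases before to 50 after a transcript start) were examined for 26 members. Of the called genes 3 were among them, and the sequences of these 3 are shown. Capitals mark the GC box GGGCGG or its reverse complement CCGCCC, the motif of Sp1-like factors, and the sequences run 5′ to 3′ on the strand of the gene.
Sema3c, chr5:17574566-17574865, plus strand: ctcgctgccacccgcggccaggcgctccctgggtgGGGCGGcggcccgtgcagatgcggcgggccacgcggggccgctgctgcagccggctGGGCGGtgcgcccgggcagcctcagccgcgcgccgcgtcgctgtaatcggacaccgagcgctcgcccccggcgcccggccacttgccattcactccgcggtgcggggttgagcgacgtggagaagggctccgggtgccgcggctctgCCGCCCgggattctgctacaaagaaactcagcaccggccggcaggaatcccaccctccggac
Plxnb1, chr9:109095186-109095485, plus strand: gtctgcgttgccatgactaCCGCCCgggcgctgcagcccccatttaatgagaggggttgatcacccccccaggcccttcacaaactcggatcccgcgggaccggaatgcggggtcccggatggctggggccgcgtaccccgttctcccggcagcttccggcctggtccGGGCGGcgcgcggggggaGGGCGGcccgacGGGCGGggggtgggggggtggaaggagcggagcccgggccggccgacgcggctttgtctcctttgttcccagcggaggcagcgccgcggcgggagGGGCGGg
Plxna2, chr1:194619579-194619878, plus strand: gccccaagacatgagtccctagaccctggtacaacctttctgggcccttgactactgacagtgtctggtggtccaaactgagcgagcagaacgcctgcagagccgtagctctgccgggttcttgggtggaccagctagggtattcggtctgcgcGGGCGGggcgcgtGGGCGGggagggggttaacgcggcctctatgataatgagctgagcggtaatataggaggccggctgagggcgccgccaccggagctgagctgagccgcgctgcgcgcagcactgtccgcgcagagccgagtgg

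The Sema3c window held 3 GC boxes, that of Plxnb1 5 and that of Plxna2 2. None of the 3 windows held a TATA box (TATAAA), an E-box (CACGTG) or a CCAAT box (letters as in its name) on either strand, letters that stood in 13.6%, 7.15% and 37.4% of the windows of all genes. Of the other called genes, Sema6a was left out of the examined windows and Plxna1 had no promoter sequence at hand. A GC box stood in 27 of the 37 windows examined for the family (73.0%), members that were not called included. It stood in 35.7% of 32851 windows of all genes. The median GC content was 63.7% in the 37 windows and 52.7% in all windows, and a letter match is not evidence that a factor binds there. Plxnb1 spans bases 109095389 to 109119917 of chromosome 9, plus strand, and an antisense gene on the minus strand overlaps it. Plxna2 spans bases 194618218 to 194816869 of chromosome 1, plus strand, where 4 other annotated genes on the same strand overlap it. None of the 4 is counted separately, so whether their reads were counted for Plxna2 is not known. Plxna1 spans bases 89316314 to 89362620 of chromosome 6, minus strand, where an antisense gene overlaps it. The kit keeps strand, but the sources used here do not say whether counting used it, so antisense reads cannot be told apart from those of Plxnb1 and Plxna1.

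None of the 6 class 4 semaphorins was called in the fit of all libraries with the filter on low counts. Sema4a, which acts on immune cells and on vessels through Plxnd1, was the member nearest to a call in the lower direction, with 13.9, 8.52, 12.8 and 7.92 CPM in KO and 12.5, 16.2, 15.4, 13.9 and 19.6 CPM in WT. Its log2 fold change was -0.54 ± 0.21 (SE, adjusted p = 0.088), and it passed the threshold without KO replicate 1 (-0.73, adjusted p = 0.0448) and with no filter (-0.56, adjusted p = 0.0431). Sema4g had 6.80, 3.16, 3.66 and 4.70 CPM in KO and 0.977, 0.972, 1.49, 4.52 and 2.70 CPM in WT. The WT libraries of run 1 were the low ones, and the log2 fold change was 1.02 ± 0.42 (SE, adjusted p = 0.102). Without WT replicate 4 it passed (1.43, adjusted p = 0.0381), and without KO replicate 1 it was 0.60. Sema4c, a ligand of Plxnb2, had a log2 fold change of 0.51 ± 0.22 (SE, adjusted p = 0.124) and passed without WT replicate 3 (0.66, adjusted p = 0.0427). Sema4b and Sema4d had log2 fold changes of 0.17 ± 0.10 and 0.14 ± 0.10 (SE), and Sema4f, at 0.243 to 4.56 CPM, had one of -0.57 ± 0.48 (SE).

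Apart from Sema3c and Sema6a, no tested semaphorin of classes 3, 5, 6 and 7 passed the threshold. Sema6b, a class 6 ligand of Plxna4, had a log2 fold change of 0.63 ± 0.30 (SE, adjusted p = 0.158) and Sema6d one of 0.27 ± 0.18 (SE, adjusted p = 0.336). Sema5a, which carries thrombospondin repeats and can bind Plxnb3, stood at -0.02 ± 0.27 (SE), Sema7a, the membrane-anchored ligand of Plxnc1 and of integrins, at 0.00439 ± 0.26 (SE), and Sema3f, a ligand of Nrp2, at 0.19 ± 0.29 (SE). The values of Sema3e, Sema5a and Sema7a changed sign when single libraries were left out.

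The other plexins were not called in the fit of all libraries with the filter on low counts. Plxnb2 had a log2 fold change of 0.17 ± 0.08 (SE, adjusted p = 0.127) and Plxnd1, a vascular receptor of Sema3e, one of 0.29 ± 0.15 (SE, adjusted p = 0.198). Plxnc1, the receptor of Sema7a, had 4.79, 2.43, 11.3 and 7.48 CPM in KO and 1.95, 0.324, 1.74, 4.07 and 7.77 CPM in WT. Its log2 fold change of 0.92 ± 0.37 (SE, adjusted p = 0.0998) passed without WT replicate 5 (1.26, adjusted p = 0.0493) and with no filter (0.89, adjusted p = 0.0491). Plxna3 and Plxna4 had log2 fold changes of -0.06 ± 0.20 and 0.20 ± 0.24 (SE). Plxna4 overlaps the antisense gene Plxna4os1, which is counted separately. The summed FPKM of all 9 plexins was 107 to 135 in KO and 84.7 to 118 in WT, ranges that overlapped. Without Plxnb2 the sum was 26.8, 29.3, 31.3 and 28.2 in KO and 21.3, 23.3, 21.9, 20.1 and 23.6 in WT, ranges that did not overlap. This sum includes the called Plxna2, Plxnb1 and Plxna1, so it is not a result separate from their calls. Their mean FPKM was 9.67, 6.61 and 4.70 in KO and 7.71, 4.12 and 3.47 in WT.

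Neither neuropilin was called in the fit of all libraries with the filter on low counts. Nrp2, which binds class 3 semaphorins and VEGF-C, had 23.2 and 36.8 CPM in the KO libraries of run 1 against 17.6, 13.6 and 13.9 CPM in the WT libraries of run 1. In run 3 it had 29.7 and 20.98 CPM in KO against 25.9 and 26.5 CPM in WT, so the groups overlapped there. The log2 fold change was 0.99 ± 0.23 (SE, adjusted p = 0.0148) in run 1 and -0.05 ± 0.23 (SE, adjusted p = 0.934) in run 3, and the difference of -1.04 ± 0.33 (SE, run 3 minus run 1) had an unadjusted p of 0.0065 and an adjusted p of 0.795 in edgeR's interaction test. Over both runs it was 0.47 ± 0.21 (SE, adjusted p = 0.128). It passed the threshold without KO replicate 4 (0.67, adjusted p = 0.0328), with no filter (0.45, adjusted p = 0.0359) and within run 1 alone (0.98, adjusted p = 0.0388), and stood at 0.20 without KO replicate 2.

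Nrp1 had 57.9 and 94.0 CPM in KO against 51.3, 52.1 and 55.4 CPM in WT in run 1, and 52.3 and 39.9 CPM in KO against 45.3 and 51.2 CPM in WT in run 3. KO replicate 2 stood apart from all other libraries, and without it the log2 fold change fell to 0.01, against 0.25 ± 0.15 (SE, adjusted p = 0.264) with all libraries. The interaction of genotype and run was called for 0 members, as for 0% of tested genes, with 3 members and 744 of all tested genes at an unadjusted p under 0.05 in the same test. The 3 were Nrp2, Nrp1 (adjusted p = 0.824) and Sema4g, whose log2 fold change was 2.08 ± 0.54 (SE) in run 1 and 0.20 ± 0.48 (SE) in run 3 (unadjusted p = 0.022, adjusted p = 0.795).

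**Figure D4:**
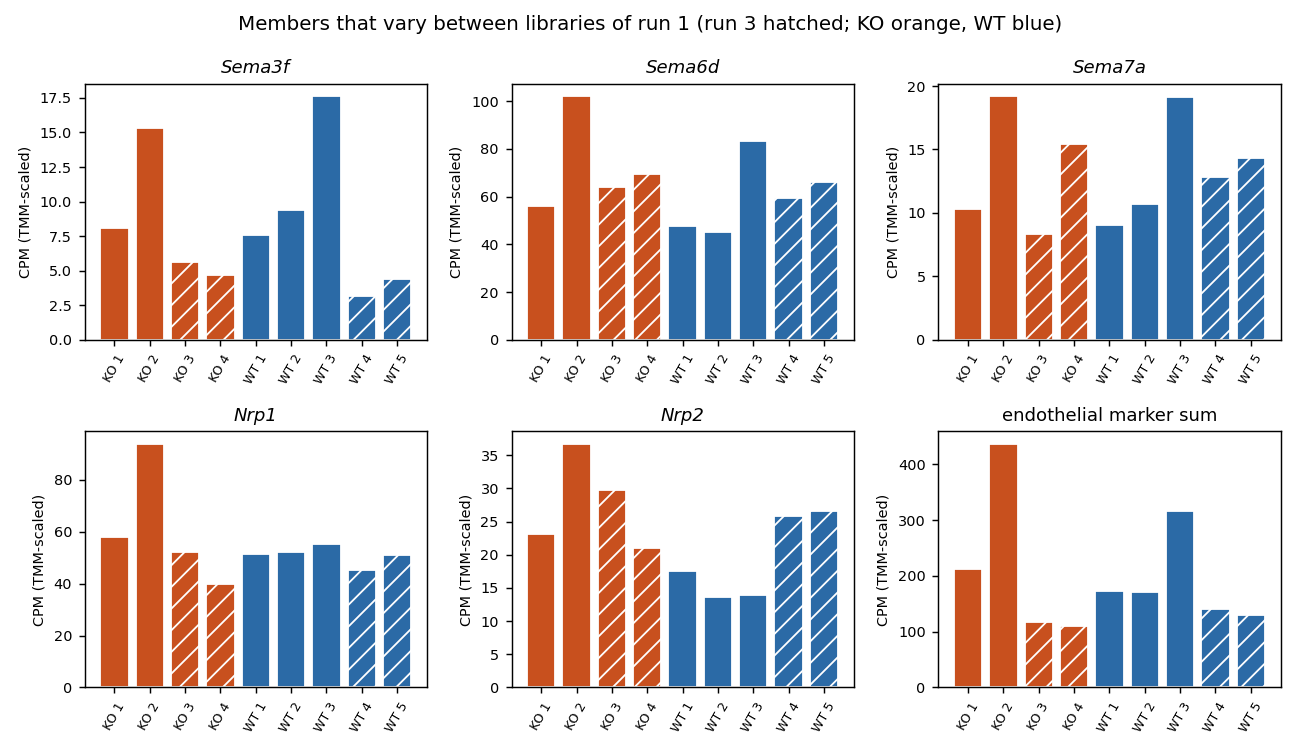
CPM per library of Sema3f, Sema6d, Sema7a, Nrp1, Nrp2 and the sum of 9 endothelial markers, with KO in orange, WT in blue and run 3 hatched. KO replicate 2 and WT replicate 3, both of run 1, are the highest libraries for Sema3f, Sema6d, Sema7a and the endothelial sum.

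Some members varied more between libraries of one genotype than between genotypes, a pattern chosen after its values were seen. KO replicate 2 and WT replicate 3 were the highest libraries for 3 of the 24 tested members. Sema3f stood at 15.3 CPM in KO replicate 2 and 17.7 CPM in WT replicate 3 and at no more than 9.39 CPM in the other 7 libraries. Sema6d stood at 102 and 83.3 CPM in these 2 libraries and at no more than 69.4 CPM elsewhere, and Sema7a at 19.2 and 19.1 CPM against no more than 15.4 CPM. The low member Sema3g, found in arterial endothelium, had 20 and 18 counts there and 2 to 13 counts elsewhere. The same 2 libraries had the highest sums of 9 endothelial markers, 437 CPM in KO replicate 2 and 316 CPM in WT replicate 3, with 110 to 212 CPM elsewhere, and also the highest sums of 10 beta cell markers. The part of cell make-up in these values was not tested.

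Runs also set levels apart for some members in both genotypes. Whole libraries differed too, with 14485 to 15136 genes counted at all in run 1 libraries and 20069 to 21067 in run 3 libraries. Plxna4 stood at 11.9 to 14.2 CPM in run 3 and 2.73 to 6.09 CPM in run 1, and Sema4f was likewise higher in every run 3 library. Plxnb2, Sema3f, Sema4b and Sema4d were lower in every run 3 library, with Plxnb2 at 434 to 528 CPM in run 3 and 637 to 760 CPM in run 1. Run was a term of the main fit of genotype, and an alternative fit left it out. Sums, shares and ranges over all libraries were compared between KO and WT with no account of run.

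Some markers of several cell types were called, beside 9.56% of all tested genes called higher in KO and 8.96% called lower. The summed CPM of 6 delta and PP cell markers was 3907 to 5510 in KO and 2986 to 4028 in WT, with 2 of 6 tested genes called higher. Of the 10 beta cell markers 5 were lower in KO. The sum of 11 fibroblast, stellate and pericyte markers was 340, 220, 908 and 822 CPM in KO and 179, 238, 112, 536 and 739 CPM in WT, with 2 of 10 tested genes higher. Of 9 endothelial markers 0 were called by edgeR, and their median log2 fold change was 0.64 in run 1 and -0.29 in run 3. Of 9 tested macrophage markers and 7 tested Schwann and neural markers 1 each was higher, of 9 tested alpha cell markers 1 was higher, of 11 acinar markers 2 were lower, with a median log2 fold change of -1.78 in run 1 and 0.21 in run 3, and of 6 tested duct markers 0 were called. The part of these markers in the changes of the 5 called members was not tested.

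Of the 119 genes in lists of co-receptors, neuropilin ligands and proteases, effectors and other guidance families, 93 were tested, 8 were called higher and 11 lower, counts close to the shares of 9.56% and 8.96% among all tested genes. Their median log2 fold change was 0.07. These lists were chosen with earlier results of these data known. Nothing is therefore read from their counts, and the p-values of their genes may not be independent of that choice. Among 7 tested neuropilin ligands and processing enzymes, 2 were higher and 3 lower. Pgf, placental growth factor, a VEGF family member that binds Nrp1, stood at 24.8 CPM in KO and 7.43 CPM in WT, with a log2 fold change of 1.70 ± 0.26 (SE, adjusted p = 0.000344). Vegfa and Vegfb, which also bind Nrp1, fell, with log2 fold changes of -0.43 ± 0.08 and -0.76 ± 0.11 (SE, adjusted p = 0.00245 and 0.000299). Furin, a protease that cleaves class 3 semaphorins, rose by 0.68 ± 0.09 (SE, adjusted p = 0.000112). The calls of Vegfa, Vegfb and Furin were lost in edgeR without the run term (adjusted p = 0.0562, 0.0683 and 0.0705). That of Vegfa was also lost within run 1 alone (adjusted p = 0.0819), while that of Pgf held in all 24 alternatives.

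Among 15 tested co-receptors 0 were called higher and 1 lower. It was Nrcam, an adhesion molecule that acts as a co-receptor with neuropilins, at 22.6 CPM in KO and 53.0 CPM in WT, with a log2 fold change of -1.16 ± 0.16 (SE, adjusted p = 0.000218). None of Met, Erbb2, Kdr and Flt1, receptor kinases that pair with plexins or neuropilins, passed the threshold. Of 40 tested effectors 1 was higher and 5 lower. On the log2 scale, Rap1a, a GTPase on which plexins act, fell by 0.50 with an adjusted p of 0.00703, and Farp2, a guanine nucleotide exchange factor bound by A-type plexins, fell by 0.53 with an adjusted p of 0.0237. Gsk3b, a kinase downstream of Sema3a, and Arhgap35, a GTPase-activating protein, fell by 0.32 and fell by 0.30 (adjusted p = 0.0146 and 0.0201). The call of Farp2 was lost in 12 of 24 alternatives, that of Arhgap35 in 10, that of Gsk3b in 7 and that of Rap1a in 2. They included, for Farp2, leaving out KO replicate 1, KO replicate 4 or WT replicate 5, for Arhgap35 leaving out KO replicates 1, 3 or 4 or WT replicate 4, and for Gsk3b leaving out KO replicates 1 or 4 or WT replicate 4.

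Other guidance families gave 4 rises and 2 falls among 18 tested Slit, Robo and netrin genes and 1 rise among 13 tested ephrin and Eph genes. The netrin receptors Unc5a and Unc5c rose by 0.45 and 0.70 on the log2 scale (adjusted p = 0.00616 and 0.015), with 1.11 in run 1 and 0.26 in run 3 for Unc5c. Robo2, a Slit receptor, and Srgap1, a GTPase-activating protein that binds Robo, fell by 0.46 and fell by 0.38 (adjusted p = 0.00219 and 0.0077). Of the 24 alternatives, 8 lost the call of Unc5c, leaving out KO replicate 2 and the fit within run 3 among them, 6 that of Srgap1, the fits within either run and on FPKM values among them, 4 that of Unc5a and 1 that of Robo2. Ephb2, a receptor for B-type ephrins, stood at 23.9 CPM in KO and 11.4 CPM in WT, with a log2 fold change of 1.04 ± 0.17 (SE, adjusted p = 0.00066).

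**Figure D5:**
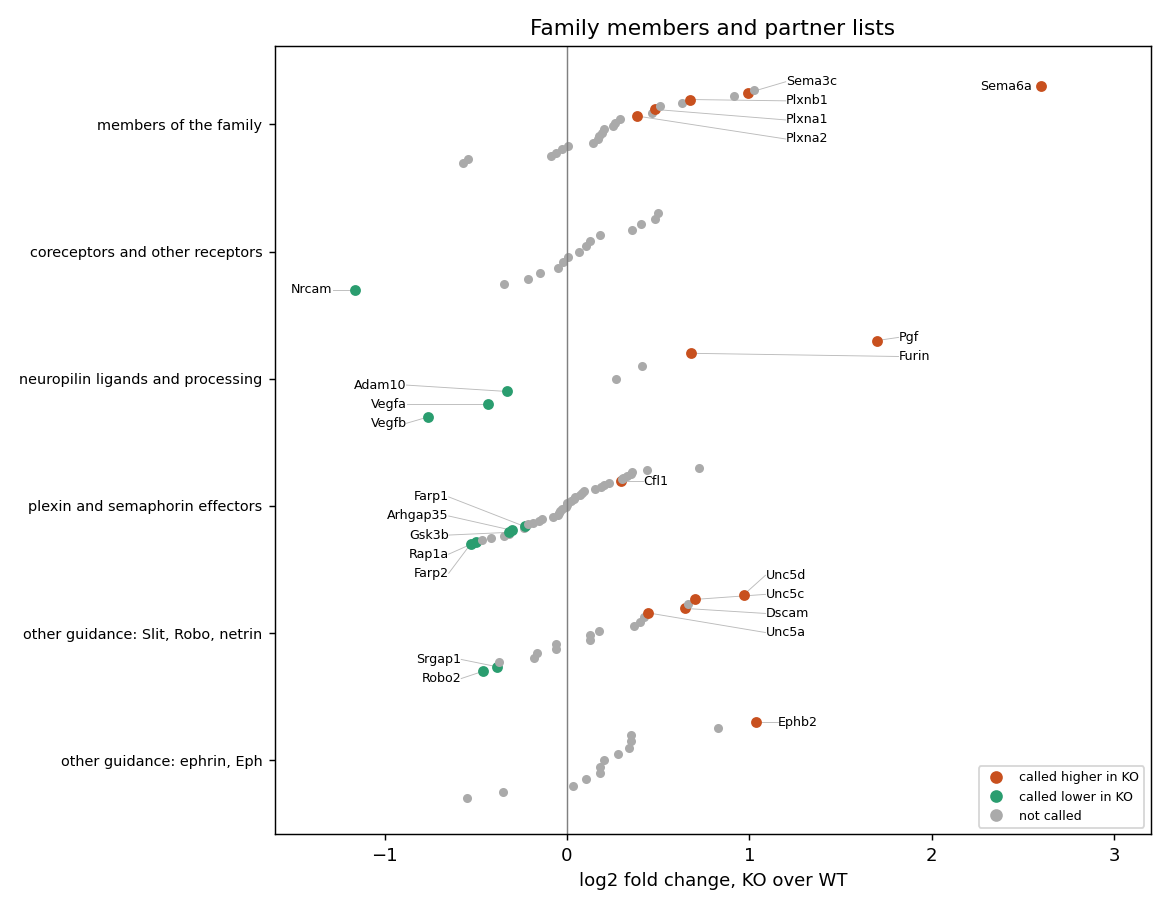
Log2 fold change of KO over WT for the 24 tested members and for the tested genes of each partner list, 1 point per gene, with genes called higher in orange, called lower in green and not called in grey. The members called are all on the right of 0, and the partner lists hold 8 genes called higher and 11 called lower.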

How the data were processed

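Islet RNA was extracted with DNase treatment and made into libraries with a stranded total RNA kit, per the labels' protocols. The authors deposited a table of raw counts per gene symbol and a table of FPKM values, and the sources used here do not state how the FPKM values were scaled between libraries. FastQC, Bowtie2 2.2.4.0, Cuffdiff 2.2.1, edgeR and mm10 are named with no role, per the submitters' processing notes. Rows of 27 symbols turned into dates were left out (0.133% to 0.186% of counts).

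Counts were tested with edgeR 4.0.16 (quasi-likelihood, TMM, default filter by genotype, run and genotype as terms) in R 4.3.3. Adjusted p-values are over all genes tested, and CPM uses TMM-scaled library sizes. Each SE of a log2 fold change is approximate. It was computed back from the test, as the absolute log2 fold change divided by the square root of its F statistic. Within-run values come from a model of 4 genotype and run groups. The test was checked on simulated data with 200 changed genes. Alternatives used DESeq2 1.42.0, limma 3.58.1 on voom values or on log2(FPKM + 0.1) or log2(FPKM + 1), other filters and scalings, and fewer libraries. Members and lists were chosen with earlier results of these data known. Per-library values are given for called members and for the 6 with the highest mean FPKM, with other members by value or range, and from each partner list up to 4 called genes with the lowest p are named.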

Additional observations from a re-analysis of the deposited data

Results flagged for a closer look

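In the KO group, Sema3c in KO replicate 4 lay apart from the other libraries at 27.3 CPM, with the other 3 between 16.1 and 17.1 CPM. The gap to its nearest neighbour was 0.907 of the range of the group, above Dixon's 95% critical value. It was the single such value among 48 groups of libraries examined (24 members in 2 genotypes), where chance flags about 1 in 20.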

How the results depend on the processing

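The 5 calls among members include Sema6a only as a description. These calls became 3 without the run term, within run 1 alone and in each of the 3 fits of FPKM values. With no filter they became 8, and they lay between 5 and 6 with single libraries left out. The 19 calls among partner genes became 4 without the run term, 12 when controls were limited to genotype f/f, 8 within run 1, 10, 11 and 10 on FPKM values and 11 without WT replicates 2 and 5, and lay between 12 and 18 with single libraries left out. Several of these settings use fewer libraries, while the fits without the run term and on FPKM values use all of them. The cause of these shifts was not tested. Over all genes, the 2315 calls became 672 without the run term, 765 within run 1, 964 within run 3, 1538 with controls of genotype f/f, 1482, 1515 and 1274 on FPKM values, 1488 without WT replicates 2 and 5, and 1519 without KO replicate 2 and WT replicate 2. Over 38 genes and their alternatives, 795 of 907 values kept direction and side of the threshold, 66 lost a call, 9 gained one and 37 changed sign, all 37 of them of uncalled members. Sema7a stood at -0.00261 with DESeq2, -0.0437 with limma-voom, -0.00345 with RLE factors, -0.0104 without Rn45s, -0.0127 with no filter, -0.000206 with the CPM filter, -0.21 within run 3, -0.0183 without WT replicates 2 and 5 and -0.28 without KO replicate 2 and WT replicate 2. Sema5a stood at 0.0519 with limma-voom, 0.0279 in both FPKM fits with 0.1 added and 0.16 without WT replicates 2 and 5. Without KO replicate 2 and WT replicate 2, Sema3f stood at -0.00961, Sema6d at -0.0319 and Plxna3 at 0.0933, and Plxna3 stood at 0.16 without WT replicates 2 and 5. Sema3e stood at 0.11 within run 1, and Plxna4, Nrp1 and Nrp2 at -0.0337, -0.0967 and -0.0815 within run 3. With single libraries left out, the log2 fold change lay between -0.31 and 0.0779 for Sema3e, -0.17 and 0.15 for Sema5a, -0.24 and 0.18 for Sema7a, -0.18 and 0.0532 for Plxna3 and -0.00228 and 0.32 for Plxna4. No paired analysis was possible because the labels give no replicate numbers, and those used here only name the libraries. Totals of 3796043 to 6073537 counts limit what can be said of members at a few CPM.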
